A study of Mus musculus with 6 samples.

Results

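The genes described here are 36 interferon-stimulated genes, chosen by symbol from the 16538 genes listed for inguinal white adipose tissue (iWAT, the subcutaneous fat depot of the groin). The tissue came from cold-acclimated mice, and gene expression was measured by bulk RNA-Seq. Control mice were fl/fl littermates, which carry floxed Nrg4 alleles without Cre and are labelled wt, and AKO mice carried an adipocyte-specific deletion of Nrg4, which encodes a secreted factor, made with Cre driven by the Adiponectin promoter. Mice of both genotypes were fed chow and kept at 8°C for a period that the labels give as 10 days, and their age and sex are not given in the sources used here. There were 3 samples per group, called control 1 to 3 and AKO 1 to 3 below, each a pool of RNA from 2 mice. The comparison asked whether this gene program differed between AKO and control iWAT, and whether its antiviral genes behaved differently from its interferon gamma and antigen presentation genes.

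Interferons are secreted cytokines that act through paired surface receptors, Janus kinases and STAT transcription factors. Type I interferons, induced when cells sense viral or misplaced nucleic acid, act mainly through a complex holding STAT2 and IRF9 that binds the interferon-stimulated response element (ISRE) and turns on antiviral genes. Interferon gamma, made by T and NK cells, acts mainly through the gamma-activated site (GAS) and turns on IRF1, immunity-related GTPases and antigen presentation genes. Many genes respond to both, so the division used here is one of main role. Of the 36 genes, 25 were placed with the antiviral genes and 11 with the interferon gamma and antigen presentation genes.

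The promoter windows of these genes were searched for the letters of both elements. The 250 bases before the transcription start were taken from RefSeq (assembly GRCm38.p6), where 18 of the 25 antiviral and 7 of the 11 interferon gamma and antigen presentation genes had an entry. An ISRE was searched as GAAANNGAAA on both strands and a GAS as TTCNNNGAA, which reads the same on both strands. An ISRE was found in 7 of the 18 antiviral windows (38.9%) and in 4 of the 7 others (57.1%), against 936 of 27025 genes of the table with a match in any of their windows (3.46%). A GAS was found in 4 antiviral windows (22.2%) and in 4 of the 7 others (57.1%), against 2197 genes of the table (8.13%). The 5 windows below were chosen because they show each arrangement, with ISRE and GAS letters in capitals and every window read 5′ to 3′ toward the start site.
Isg15, chr4:156200819-156201068, minus strand: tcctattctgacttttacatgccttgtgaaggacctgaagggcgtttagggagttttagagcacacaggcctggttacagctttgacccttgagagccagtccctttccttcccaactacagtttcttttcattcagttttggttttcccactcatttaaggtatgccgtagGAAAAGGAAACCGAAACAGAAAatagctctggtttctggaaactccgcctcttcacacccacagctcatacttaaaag
Ifit3, chr19:34583279-34583528, plus strand: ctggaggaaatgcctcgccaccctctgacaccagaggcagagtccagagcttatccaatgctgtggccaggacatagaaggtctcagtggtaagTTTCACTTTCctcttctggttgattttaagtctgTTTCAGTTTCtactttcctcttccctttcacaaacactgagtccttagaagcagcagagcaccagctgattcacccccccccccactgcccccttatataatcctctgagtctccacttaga
Igtp, chr11:58199306-58199555, plus strand: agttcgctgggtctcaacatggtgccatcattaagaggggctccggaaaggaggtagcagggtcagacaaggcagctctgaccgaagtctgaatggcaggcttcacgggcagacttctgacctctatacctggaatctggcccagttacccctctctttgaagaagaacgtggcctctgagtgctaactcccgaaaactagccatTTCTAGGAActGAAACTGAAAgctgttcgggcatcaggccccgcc
Irgm2, chr11:58214727-58214976, plus strand: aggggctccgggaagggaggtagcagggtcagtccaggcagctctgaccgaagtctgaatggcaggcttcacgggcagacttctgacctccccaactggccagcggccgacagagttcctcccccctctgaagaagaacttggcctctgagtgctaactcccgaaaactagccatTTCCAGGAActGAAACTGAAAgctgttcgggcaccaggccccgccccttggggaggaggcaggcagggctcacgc
Irf8, chr8:120736108-120736357, plus strand: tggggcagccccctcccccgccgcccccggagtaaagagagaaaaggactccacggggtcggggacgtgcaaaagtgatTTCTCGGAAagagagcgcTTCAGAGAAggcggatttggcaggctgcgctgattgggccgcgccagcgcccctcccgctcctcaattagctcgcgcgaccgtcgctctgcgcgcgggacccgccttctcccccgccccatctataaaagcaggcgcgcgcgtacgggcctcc
The Isg15 window, before an antiviral gene, held 3 overlapping ISRE matches between 78 and 57 bases before the start, and the Ifit3 window held 2 separate ones, read on the opposite strand as TTTCNNTTTC. The windows of the neighbouring GTPase genes Igtp and Irgm2 each held a GAS followed by an ISRE in a block of 21 bases, of which 20 were identical, and shared a run of 55 identical bases. The Irf8 window held 2 GAS matches and no ISRE match. Both elements were found together before Oas1a, Bst2, Igtp and Irgm2. These matches are letters in a window and not measured binding.

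Depth was similar across samples, with 17570335 to 18373707 reads on the listed genes. The values below are normalized counts, which are read counts scaled by the authors for depth and not for gene length, and group values are mean ± SD with n = 3. Over all samples 1 read was worth 0.960 to 1.08 normalized counts. Nrg4 itself, at 3092 to 3128 in control and 2577 to 2691 in AKO samples, was lower in every AKO sample (2-sided exact permutation test, p = 0.1, the smallest that 3 samples against 3 can give). The AKO mean of 2632 differed from the control mean of 3108 by -15.3%, and the count covers the whole gene, so that reads from exons outside the deleted part may be included and the value checks the direction of the labels only. Adipocyte markers were high in every sample, with summed values of 370612 to 388529 in control and 331481 to 361415 in AKO. Some samples stood apart in other cell types. The 6 B cell markers summed to 757.6 in control 1 and 952.9 in AKO 2 but to between 46.8 and 71.1 in the other 4 samples. Skeletal muscle markers summed to 129.5, 20769 and 11750 in control 1, 2 and 3 and to 15251, 58650 and 90116 in AKO 1, 2 and 3.

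No member of the program passed the test between AKO and control iWAT. All 36 genes were listed and had a mean of at least 10 normalized counts, the level required for testing. In limma, with Benjamini-Hochberg adjustment over the 13855 genes tested, 0 of 36 had an adjusted p under 0.05, where 2 of all genes tested did (0.0144%). These were Elovl3, lower in AKO, and Zfp949, higher in AKO. At an unadjusted p under 0.05 there was 1 member, Zbp1, higher in AKO, where 9.1% of all genes passed (4.41% higher and 4.69% lower). On the recovered reads edgeR (0.0144% of all genes at an adjusted p under 0.05) and DESeq2 (0.998%) also gave 0 members at an adjusted p under 0.05. In both, Zbp1 was the only member at an unadjusted p under 0.05, for which their share of all genes is not given here. The lowest adjusted p of a member was 0.508 in limma, and it lay between 0.41 and 0.787 over the alternatives. The depth and spread of these samples bounded the differences: the 95% interval of the difference stayed within 2-fold in either direction for all 36 members and within 1.5-fold for 25. The half-width of the interval had a median of 0.33 on the log2 scale and ran from 0.16 for Irf9 to 0.78 for Iigp1.

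Most members lay slightly higher in AKO. The difference between AKO and control on the log2(normalized count + 1) scale was positive for 29 of 36 members (80.6%), compared with 51.9% of all genes tested. It ran from -0.30 for Mx2 to 0.44 for Zbp1, with a median of 0.08 over the members and 0.01 over all genes. The 3 AKO values lay above the 3 control values for 2 members, Zbp1 and Oas1a, and below them for none, where the groups did not overlap for 14.5% of all genes (6.14% higher and 8.31% lower in AKO). The 2 kinds of genes did not stand apart from each other. The median difference was 0.08 for the antiviral genes, of which 20 of 25 were positive, and 0.07 for the interferon gamma and antigen presentation genes, of which 9 of 11 were positive. The gap between these medians was 0.01, which is smaller than its spread of 0.13 between replicates. No test was run on the lists.

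**Figure D1:**
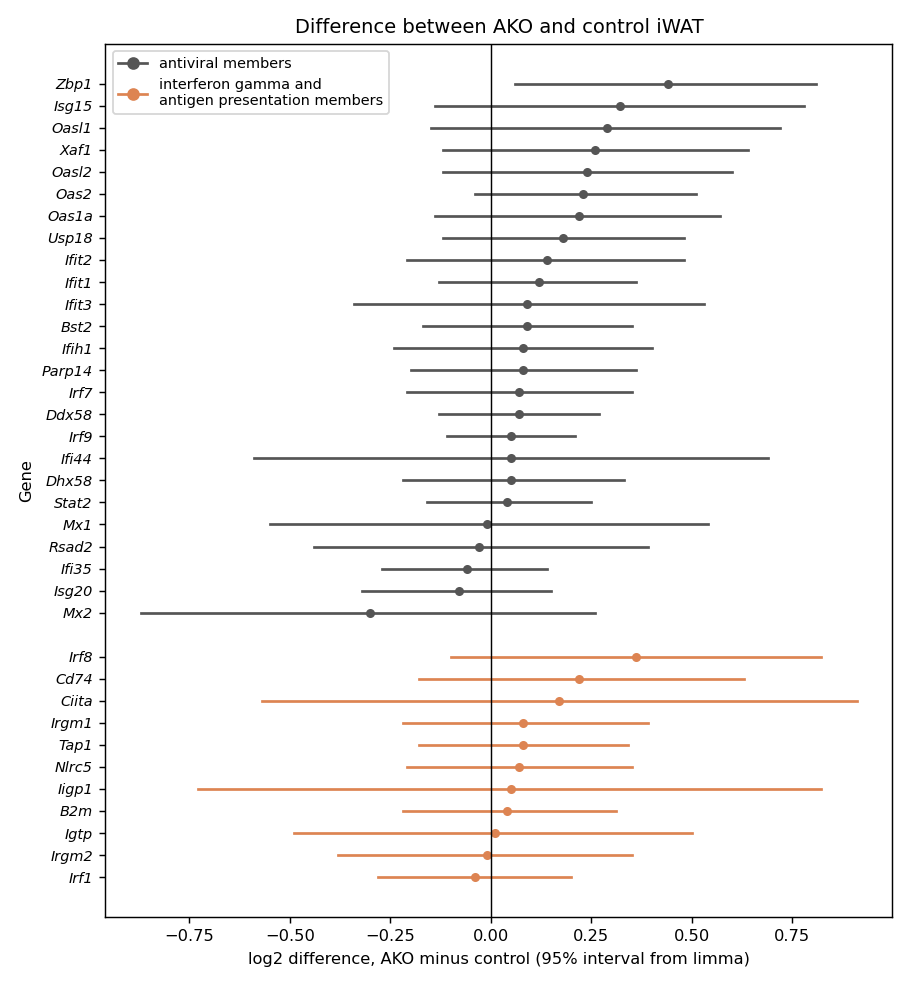
Difference between AKO and control iWAT for the 36 interferon-stimulated genes on the log2(normalized count + 1) scale, with points for the fitted difference and lines for its 95% interval from limma (n = 3 per group). The interval of Zbp1, from 0.06 to 0.81, is the only one that does not cross 0, and most points of both kinds of genes lie just right of 0.

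None of the 5 transcription factors of the program passed the test. Stat2 (chr10:128270559-128292849, plus strand, GRCm38), the subunit specific to the type I complex, was at 921.2, 931.3 and 910.8 in the control samples and at 1072, 854.3 and 936.1 in the AKO samples. AKO 1 and AKO 2 lay on either side of all controls, and the difference was 0.04 on the log2 scale (SE 0.09, limma adjusted p = 0.926). Its partner Irf9, which brings the complex to DNA, read 673.4, 664.6 and 659.7 in control and 733.7, 672.7 and 659.4 in AKO. The groups overlapped, and the fitted difference in Irf9 was 0.05 (SE 0.07, limma adjusted p = 0.896). Irf7, the amplifier of type I interferon production, read 773.7, 848.5 and 872.2 in control and 846.0, 747.8 and 1049 in AKO. AKO 3 was the highest and AKO 2 the lowest of the 6 samples, with a fitted difference of 0.07 (SE 0.12, limma adjusted p = 0.913).

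On the interferon gamma side, Irf1, an early target that turns on antigen processing genes, read 1505, 1411 and 1279 in control and 1515, 1385 and 1186 in AKO. Both groups covered nearly the same range, and the difference in Irf1 was -0.04 (SE 0.10, limma adjusted p = 0.944). Irf8 (chr8:120736358-120756694, plus strand), a factor needed for the development of macrophages, dendritic cells and B cells, was different in its order of samples. It read 306.1, 204.3 and 232.8 in control and 271.8, 409.1 and 275.7 in AKO. AKO 2 was the highest and control 1 the second highest, and the difference in Irf8 was 0.36 (SE 0.20, 95% interval -0.10 to 0.82, limma adjusted p = 0.642). These are the 2 samples with high B cell marker counts, whose part in the result was not tested.

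Zbp1 (chr2:173206612-173218923, minus strand), a sensor of Z-form nucleic acid that can trigger necroptosis, had the largest difference among the antiviral genes. It read 173.6, 206.5 and 205.3 in control (195.1 ± 18.7) and 323.6, 209.9 and 269.0 in AKO (267.5 ± 56.9). All AKO values lay above all control values, although AKO 2 exceeded control 2 by only a few counts. The difference in Zbp1 was 0.44 on the log2 scale (SE 0.16, 95% interval 0.06 to 0.81, unadjusted p = 0.0283, limma adjusted p = 0.508). The exact permutation test gave p = 0.1, and leaving out each sample in turn moved the difference between 0.29 and 0.60. Oas1a (chr5:120896256-120907521, minus strand), an oligoadenylate synthetase that activates RNase L on viral double-stranded RNA, was the other gene without overlap. It read 54.19, 54.84 and 57.94 in control (55.7 ± 2.01) and 58.58, 64.44 and 72.31 in AKO (65.1 ± 6.89). The lowest AKO value and the highest control value of Oas1a were less than 1 normalized count apart (61 reads in AKO 1 and 57 in control 3). The difference in Oas1a was 0.22 (SE 0.15, limma adjusted p = 0.729, exact permutation p = 0.1). For Oas1a the SDs of both groups were below the counting error at its mean and understate its error.

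The remaining antiviral genes gave smaller differences than Zbp1, several of them larger than that of Oas1a, and their groups overlapped. The other members of the oligoadenylate synthetase family were Oas2 at 0.23, Oasl1 at 0.29 and Oasl2 at 0.24 on the log2 scale, with limma adjusted p of 0.599 to 0.71. Control 1 was the lowest of the 6 samples for each of them. The IFIT genes, whose products bind viral RNA lacking host cap marks, differed by 0.12 for Ifit1, 0.14 for Ifit2 and 0.09 for Ifit3. AKO 1 was the highest sample for each, and Ifit3 read 501.3 there and 297.8 in AKO 2. The ubiquitin-like modifier Isg15 ranged from 53.19 in control 1 to 96.41 in AKO 3, a difference of 0.32 (limma adjusted p = 0.684), and Usp18, the protease that removes it, differed by 0.18.

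Among the cytosolic RNA sensors, Ddx58, which encodes RIG-I, read 788.8, 708.7 and 710.6 in control and 858.5, 730.3 and 732.7 in AKO. One sample in each group stood above the rest, and the difference in Ddx58 was 0.07 (SE 0.09, limma adjusted p = 0.873). Its relatives Ifih1, which encodes MDA5, and Dhx58, which encodes LGP2, differed by 0.08 and 0.05. Parp14, an ADP-ribosyltransferase and the antiviral gene with the highest count, read 1402, 1110 and 1089 in control and 1449, 1181 and 1168 in AKO, with the same shape of 1 high sample per group. The difference in Parp14 was 0.08 (SE 0.12, limma adjusted p = 0.901).

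The other effectors pointed either way. Xaf1, a pro-apoptotic interferon target, differed by 0.26 and the tetherin gene Bst2 by 0.09. The exonuclease gene Isg20 differed by -0.08, Ifi35 by -0.06 and the viperin gene Rsad2 by -0.03, with limma adjusted p of 0.861 to 0.985. The dynamin-like GTPase genes Mx1 and Mx2 differed by -0.01 and -0.30 at mean values of 25.4 to 57.1 per group, and Mx2 is annotated as a polymorphic pseudogene. Ifi44, a gene induced by type I interferons, had the widest range of the antiviral genes. It read 80.28, 90.33 and 74.21 in control and 116.2, 52.72 and 97.37 in AKO. The 3 control samples of Ifi44 lay inside the span of AKO 1 and AKO 2, which were 2.2-fold apart, and the difference was 0.05 (SE 0.28, limma adjusted p = 0.979).

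The immunity-related GTPases, which attack the vacuoles of intracellular pathogens, held the widest spread of all members. Iigp1 read 1395, 1115 and 1165 in control (1225 ± 149) and 2204, 740.0 and 1222 in AKO (1388 ± 746). AKO 1 lay 2.98-fold above AKO 2, and both were outside the range of the controls, on opposite sides. The difference in Iigp1 was 0.05 with a wide interval (SE 0.34, 95% interval -0.73 to 0.82, limma adjusted p = 0.985). Irgm2 read 1721, 1537 and 1440 in control and 1958, 1222 and 1553 in AKO. Its order of AKO samples was the same as that of Iigp1, and its difference was -0.01 (SE 0.16, limma adjusted p = 0.993). Igtp, whose promoter window shares the GAS and ISRE block with Irgm2 above, read 1168 in AKO 1 and 592.6 in AKO 2 with controls between 806.1 and 890.4. Irgm1 differed by 0.08 and had the same highest and lowest samples. Igtp and Irgm2 overlap on the plus strand of chromosome 11 (GRCm38), and 8.0% of the exon bases of Igtp and 4.4% of those of Irgm2 are shared, so that reads there cannot be assigned to either gene with certainty.

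Of the 5 antigen presentation genes, 4 were highest in AKO 1. B2m, the invariant light chain of MHC class I, read 29269, 32201 and 35820 in control and 37237, 29690 and 33507 in AKO. AKO 1 was the highest and control 1 the lowest, and the difference in B2m was 0.04 (SE 0.11, limma adjusted p = 0.946). Cd74, the invariant chain that chaperones MHC class II, read 9619, 7094 and 10797 in control and 12677, 8899 and 10425 in AKO. The groups overlapped and the difference in Cd74 was 0.22 (SE 0.18, limma adjusted p = 0.763). Tap1, a subunit of the peptide transporter, and Nlrc5, the transactivator of MHC class I genes, differed by 0.08 and 0.07, with AKO 1 highest for each. Ciita, the transactivator of MHC class II genes, went with Irf8 instead. It read 197.7, 102.2 and 128.1 in control and 160.4, 224.6 and 102.2 in AKO, highest in AKO 2 and second highest in control 1, with a difference of 0.17 (SE 0.32, limma adjusted p = 0.922).

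**Figure D2:**
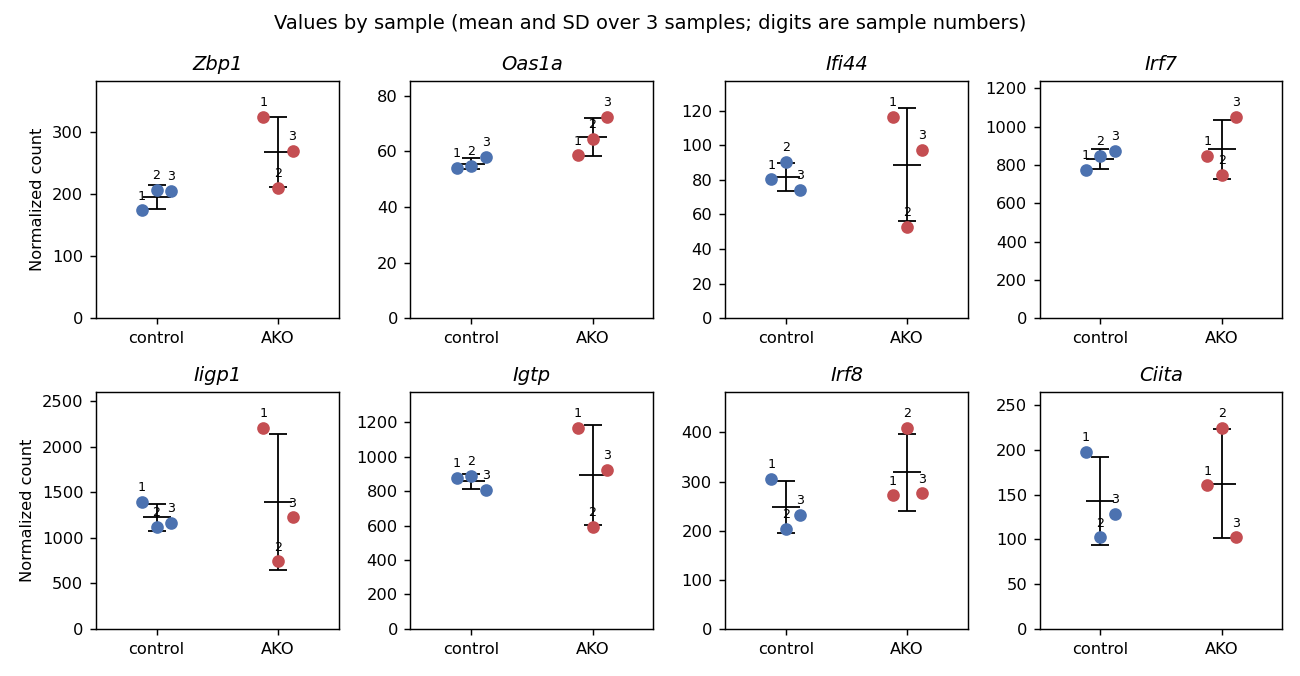
Normalized counts of 8 members in each of the 6 samples, with points for samples (digits are sample numbers) and bars for mean and SD (n = 3). Zbp1 and Oas1a show no overlap between groups, Iigp1 and Igtp show AKO 1 high and AKO 2 low, and Irf8 and Ciita show AKO 2 and control 1 high.

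The values were spread more widely within the AKO group than within the control group. The SD on the log2 scale was larger in AKO for 30 of 36 members (83.3%), compared with 43.3% of all genes tested. Its median was 0.14 in control and 0.25 in AKO over the members, and 0.14 and 0.12 over all genes. This held for 20 of the 25 antiviral and for 10 of the 11 interferon gamma and antigen presentation genes. For 10 members the control SD was below the counting error, and of the other 26 the SD was larger in AKO for 20.

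The spread followed AKO 1 and AKO 2. AKO 1 was the highest of the 6 samples for 22 of 36 members (61.1%), compared with 15.4% of all genes tested. The share was 52.0% of the antiviral and 81.8% of the interferon gamma and antigen presentation genes. AKO 2 was the lowest for 13 members (36.1%), compared with 17.6% of all genes. AKO 1 exceeded AKO 2 for 30 of 36 members, by a median of 0.32 on the log2 scale, whereas the median over all genes was 0.00. AKO 3 was near AKO 1 for the antiviral genes, with a median of 0.18 above the control mean, and was at 0.00 for the interferon gamma and antigen presentation genes. It was the highest sample for 6 antiviral genes and for 0 of the others.

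**Figure D3:**
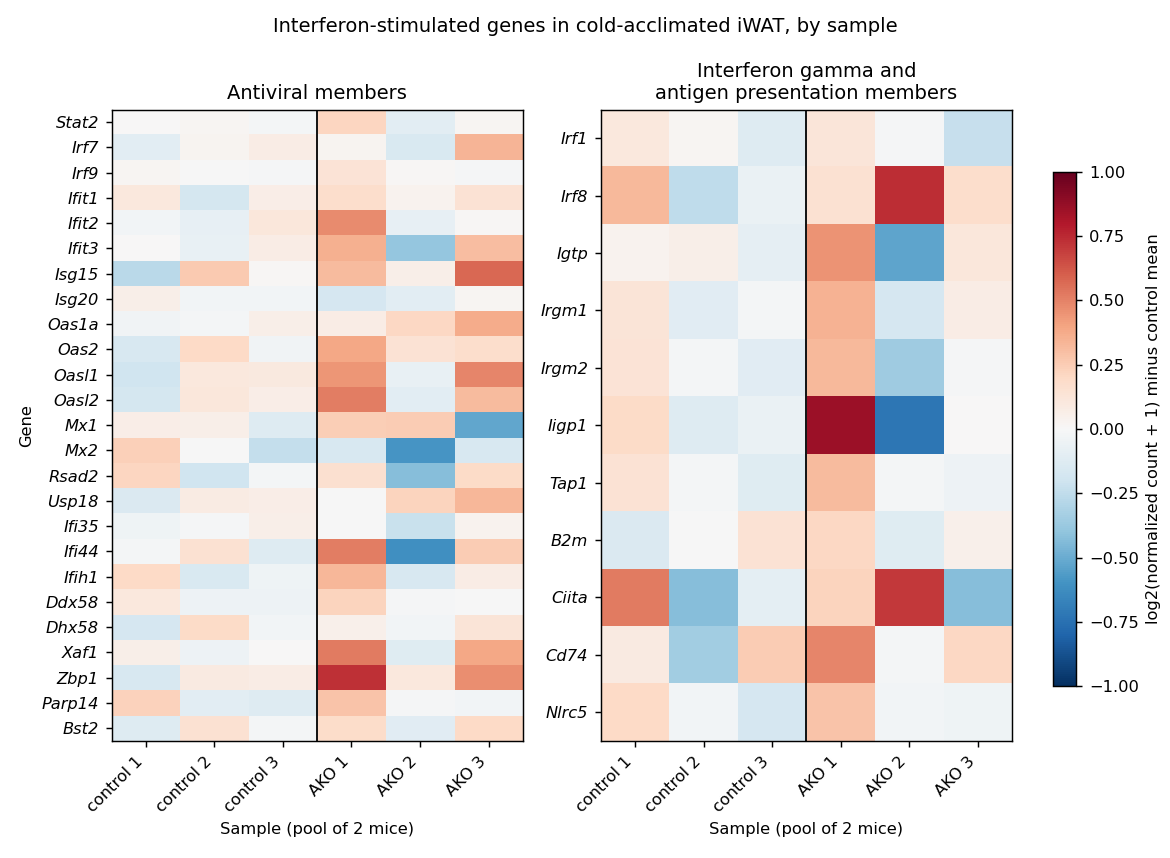
Log2(normalized count + 1) of each member in each sample minus the mean of the 3 control samples, with red for higher and blue for lower values and a line between the groups. The AKO 1 column is red for most genes of both kinds, the AKO 2 column is deep blue for Iigp1, Ifi44 and Mx2 and red for Irf8 and Ciita, and the AKO 3 column is redder for the antiviral genes.

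The direction of 13 members depended on AKO 1. Without it, 16 members were positive and 20 negative, and these 13 (36.1%) changed sign, compared with 11.8% of all genes tested. They were 7 of the 25 antiviral genes and 6 of the 11 interferon gamma and antigen presentation genes, and Iigp1 went from 0.05 to -0.36. Leaving out AKO 2 worked the other way, and the groups then did not overlap for 12 members, all higher in AKO, where 12.5% of all genes were higher without overlap. With control 1 and AKO 2 both left out, a choice made after seeing the data, 20 members were higher without overlap, where 21.7% of all genes were. No member had an adjusted p under 0.05 in limma in either case.

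**Figure D4:**
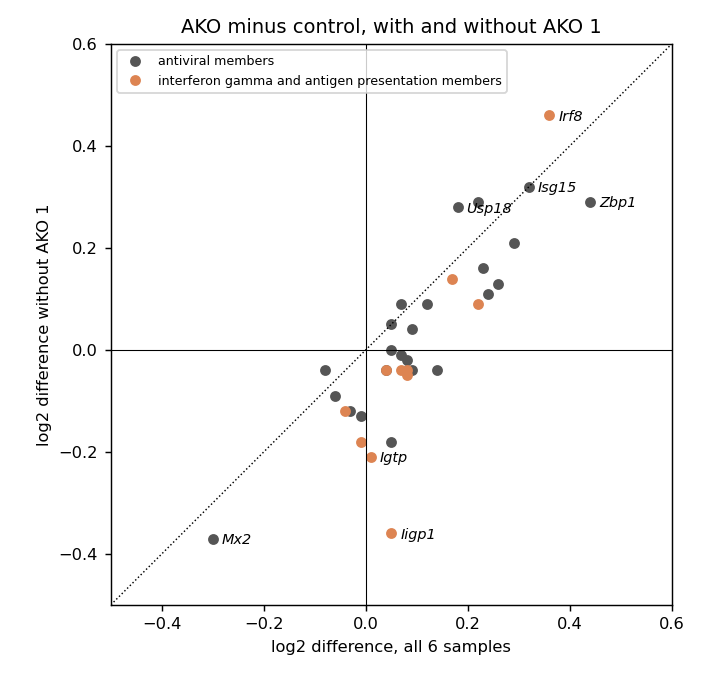
Log2 difference between AKO and control of each member with all 6 samples (horizontal axis) and without AKO 1 (vertical axis), with a dotted line of equality. Most points lie below the line, and 13 members change sign, while Zbp1, Isg15 and Irf8 stay positive.

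Immune cell markers moved between samples too. In bulk tissue, fewer cells of a type and less RNA per cell cannot be told apart. All 10 macrophage markers lay above every control in AKO 1, and their summed values were 11502 to 16013 in control and 18908, 13908 and 19089 in AKO 1, 2 and 3. The median macrophage marker was 0.52, 0.06 and 0.48 above the control mean in AKO 1, 2 and 3 on the log2 scale, beside 0.22, -0.08 and 0.18 for the antiviral genes and 0.31, -0.03 and 0.00 for the interferon gamma and antigen presentation genes. All 10 markers were positive, with a median difference of 0.37, and 5 of them (Csf1r, Cd68, C1qa, Mrc1 and Fcgr1, at 0.37 to 0.71) had an unadjusted p under 0.05 in limma, while 0 had an adjusted p under 0.05. The summed T and NK cell markers were 661.3, 288.2 and 320.2 in control and 346.7, 1035 and 281.5 in AKO. AKO 2 was the sample with the highest sum, and the 4 GTPase genes were lowest there. The dendritic cell markers summed to 415.1 to 499.7 in control and 474.3 to 563.3 in AKO. The 7 endothelial markers had a median difference of -0.06 and the 7 leukocyte markers one of 0.32. Of the leukocyte markers, Laptm5 at 0.29 and Cd53 at 0.39 had an unadjusted p under 0.05 in limma, and neither had an adjusted p under 0.05. No marker listed was at 0 in any sample, and the part of these cells in the results on interferon-stimulated genes was not tested.

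**Figure D5:**
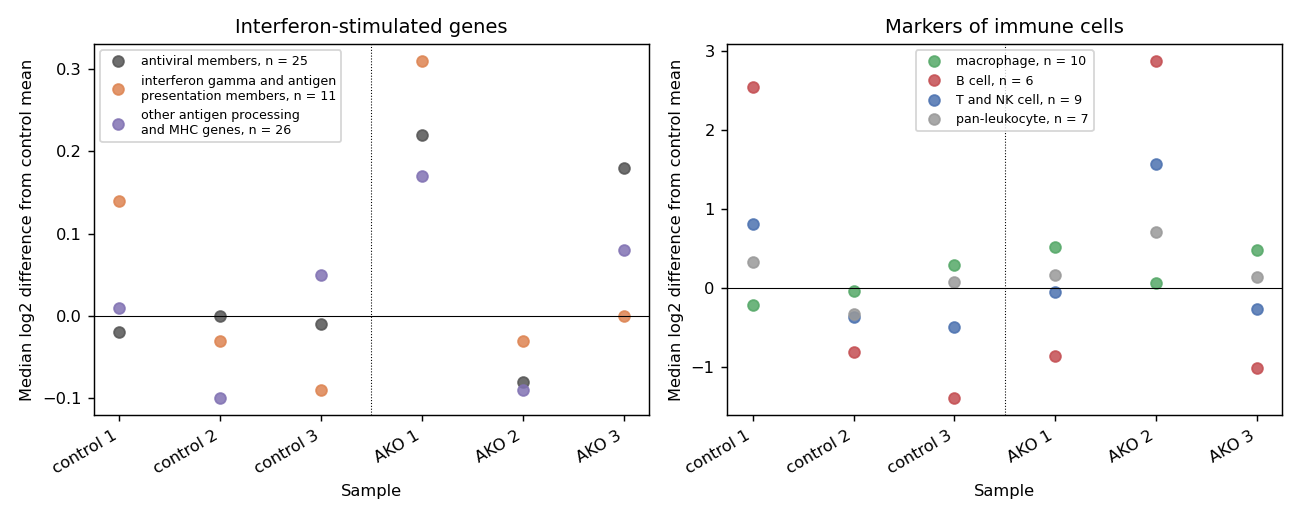
Median log2 difference from the control mean in each sample for lists of interferon-stimulated genes (left) and of immune cell markers (right, on a wider axis), with 1 point per list. The interferon lists are highest in AKO 1, the B cell and T and NK cell markers in AKO 2 and control 1, and the macrophage markers in AKO 1 and AKO 3.

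Upstream of the program, the interferons themselves were barely represented. Of 12 interferon genes looked up, 1 was listed, Ifng, with 2, 3 and 1 reads in control and 5, 2 and 3 in AKO, which is below the level required for testing, and the others were not analysed here. Of the 14 receptor and signaling genes, 0 had a limma adjusted p under 0.05. An unadjusted p under 0.05, which 9.1% of all genes tested had, was found for 1. This was Ifngr2, a chain of the interferon gamma receptor, at 760.7, 747.4 and 789.9 in control and 834.5, 860.1 and 861.9 in AKO, higher in all 3 AKO samples (difference 0.15, limma adjusted p = 0.522).

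Of 17 nucleic acid sensors and their adaptors, 0 had a limma adjusted p under 0.05. At an unadjusted p under 0.05, 3 were higher and 1 lower, where 4.41% of all genes were higher and 4.69% lower. The higher ones were Tlr8, an endosomal receptor, at 0.56, Irf5, a factor that acts downstream of such receptors, at 0.43, and Traf3, a ubiquitin ligase that connects sensors to interferon induction, at 0.27. Tlr8 read 59.21, 53.77 and 69.13 in control and 83.55, 92.75 and 91.59 in AKO (limma adjusted p = 0.374). The lower one was Mavs, the mitochondrial adaptor of RIG-I and MDA5, at -0.17 (limma adjusted p = 0.531).

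A list of 39 other interferon-stimulated genes had a median difference of 0.10, and AKO 1 was the highest sample for 20 of them (51.3%). The groups did not overlap for 9 of the 39, of which 7 were higher and 2 lower in AKO. Over all genes tested the groups did not overlap for 14.5% (6.14% higher and 8.31% lower in AKO). The SD was larger in AKO for 59.0% of the list, and 17.9% changed sign without AKO 1, compared with 83.3% and 36.1% of the members. Of the list, 0 had a limma adjusted p under 0.05. At an unadjusted p under 0.05, 3 were higher and 1 lower, compared with 4.41% and 4.69% of all genes. The higher ones were the DNA-binding Ifi204 at 0.43, the nucleotide hydrolase Samhd1 at 0.17 and F830016B08Rik at 0.79, and the lower one was Ifi27 at -0.25. Ifi204 read 394.4, 397.9 and 433.0 in control and 595.4, 490.1 and 571.7 in AKO (limma adjusted p = 0.295). Of the 26 other MHC and antigen processing genes tested, AKO 1 was the highest sample for 15 (57.7%), and the median difference was 0.06. The class I heavy chains H2-K1 and H2-D1 differed by -0.01 and -0.00. The 1 gene with an unadjusted p under 0.05 was Ctss, a lysosomal protease that trims the class II invariant chain. Ctss read 644.3, 606.5 and 732.9 in control and 849.9, 873.8 and 904.3 in AKO, a difference of 0.41 (limma adjusted p = 0.263), and it was the only gene of these lists with a DESeq2 adjusted p under 0.05 (0.0301, within a range of 0.0301 to 0.651 over the alternatives). Macrophages express Ctss, Tlr8 and Ifi204 strongly, and the part of the macrophage markers in these values was not tested.

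Levels can be compared between genes only after division by exon length. On that scale, in normalized counts per kilobase of exon averaged over all samples, B2m was at 38319 and Cd74 at 5907, followed by Bst2 at 555, Igtp at 433, Irgm2 at 426 and Irf1 at 347. The lowest were Ciita at 16.0, Mx1 at 14.9, Ifi44 at 13.9 and Mx2 at 7.89. The levels per kilobase of Igtp and Irgm2 were 424 in control for both genes, and 443 and 428 in AKO. Some values also depend on how reads were assigned. Ifit3 and Oas1a belong to families of near-identical copies, so their counts may include or lose reads of relatives, and 16.8% of the exon bases of Ifi35 are shared with Gm11626 on the opposite strand, where counting was not stated to use strand.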

How the data were processed

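The authors sequenced iWAT RNA of cold-acclimated control and AKO mice as 3 pools of 2 mice per group. Group membership came from the genotype label. Because each sample is a pool, p-values measure the spread between pools. The authors aligned reads with STAR to GRCm38.p6 (mm10 in the labels), counted them per gene with featureCounts on a GENCODE annotation and used DESeq2; FastQC is also named in the submitters' processing notes. The deposited signal per gene and sample is a read count divided by a size factor. The same deposited table holds log2 fold changes for AKO against control, and p-values and adjusted p-values calculated by the authors, none of which were used.

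Genes with a mean of at least 10 (13855 of 16538) were tested on log2(value + 1) with limma (version 3.58.1, R 4.3.3) with a trend in the variance, and an adjusted p under 0.05 (Benjamini-Hochberg over all genes tested) was the threshold. Fold changes on this scale understate changes of genes with low counts. Dividing by the smallest step gave whole reads, within 0.01, for 100% of the values. These reads were used with edgeR (version 4.0.16) and DESeq2 (version 1.42.0). Single genes were compared by a 2-sided exact permutation test. The fitting code was tested on simulated data. Alternatives were TMM factors, pseudocounts of 0.1 and 10, no filter or at least 10 in every sample, a replicate block, and each sample left out.

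The members and all gene lists were chosen with earlier results of these data known. Values in every sample are given for the transcription factors, for members without overlap or with an unadjusted p under 0.05, for the 4 members of each kind with the highest counts and for the member of each kind with the widest range; Igtp and Ciita were added after their values were seen. In other lists, genes with an unadjusted p under 0.05 are named, marker lists without one are given by sums or medians, and H2-K1 and H2-D1 were added after their values were seen. Positions and exon lengths are from GENCODE (GRCm38) and promoter sequences from RefSeq. Samples within a group differed beyond counting error (chi-square divided by its degrees of freedom was at least 10.4), so each counted as a separate replicate.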

Additional observations from a re-analysis of the deposited data

How the results depend on the processing

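No member had an adjusted p under 0.05 under any alternative. The number of all genes with one was 6 when at least 10 counts were required in every sample, 149 with DESeq2, 0 with control 1 and AKO 2 both left out (chosen after seeing the data) and 0 to 3 when each sample was left out. With those 2 samples left out, the median difference was 0.20 for the antiviral and 0.23 for the interferon gamma and antigen presentation genes. In that setting 20 members did not overlap between groups, where 42.4% of all genes did not overlap. When each sample was left out, the 2 medians were 0.00 to 0.18 and -0.04 to 0.16. The count of members without overlap was then 3 to 12, where 21.9% to 28.9% of all genes did not overlap. The count of 12 was reached without AKO 2. Same-numbered samples are pools of different mice, and their deviations from the group means gave r = 0.135, -0.351 and 0.24. The samples were not treated as paired by number. With 3 samples per group this check cannot exclude a shared litter or batch. With the replicate block, 2 genes and 0 members had an adjusted p under 0.05, and the medians were 0.08 and 0.07.

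Of 324 values of single members under settings other than leaving out 1 sample, 315 kept their direction. The sign turned for Mx1 with TMM factors (0.00), a pseudocount of 10 (0.00), edgeR (0.05) and DESeq2 (0.04), for Rsad2 with edgeR (0.00) and with control 1 and AKO 2 left out (0.28), and for Irgm2 with edgeR (0.02), DESeq2 (0.01) and those 2 samples left out (0.23). When each sample was left out, 181 of 216 values kept their direction and 21 members changed sign at least once, 13 of them without AKO 1. The ranges were -0.04 to 0.12 for Stat2, -0.06 to 0.18 for Irf7, -0.04 to 0.24 for Ifit2, -0.04 to 0.34 for Ifit3, -0.13 to 0.25 for Mx1, -0.13 to 0.17 for Rsad2, -0.12 to 0.02 for Ifi35, -0.18 to 0.38 for Ifi44, -0.04 to 0.20 for Ifih1, -0.01 to 0.12 for Ddx58, -0.03 to 0.15 for Dhx58, -0.02 to 0.20 for Parp14, -0.12 to 0.05 for Irf1, -0.21 to 0.28 for Igtp, -0.05 to 0.21 for Irgm1, -0.18 to 0.16 for Irgm2, -0.36 to 0.43 for Iigp1, -0.04 to 0.15 for Tap1, -0.04 to 0.13 for B2m, -0.10 to 0.46 for Ciita and -0.04 to 0.17 for Nlrc5. The cause was not tested. With 3 pools per group, the interval half-width (median 0.33 on the log2 scale) corresponds to an unadjusted p of 0.05, so that a difference had to be larger than that to pass after adjustment.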
